A study of Rattus norvegicus with 4 samples.

Results

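A total of 158 probes, of 38948 on the array that were not control spots (0.406%), read much higher in rat thyroid cells making an antagonist of TTF1 than in the same cells with the antagonist switched off. They were selected on the log2 ratios themselves. Each reached at least 1.8, or 3.48-fold, on both arrays of the antagonist Engr-HD, and its mean over both arrays of the control protein Engr-HDm stayed under 1.5-fold in either direction. A rise of about 4-fold describes the lower part of the set better than its middle. The median Engr-HD mean was 2.35, or 5.10-fold, and the means ran from 1.85 to 5.03, or 3.60-fold to 32.8-fold. All 4 arrays entered the choice, so no test on these probes is independent of it and their values are given as a description.

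TTF1, also called Nkx2-1, is a homeodomain transcription factor of the thyroid, the lung and parts of the forebrain. In thyroid follicular cells it binds the promoters of genes for hormone synthesis, among them those of thyroglobulin and thyroid peroxidase, and acts there together with the paired-domain factor Pax8. It is also needed for the thyroid to form in the embryo.

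PCCl3 is an established line of rat thyroid follicular cells. The cells expressing Engr-HD and the cells expressing Engr-HDm had been cultured without doxycycline, while each was compared with cells of its own construct kept in the drug, which silences the construct. Every group came from clones that make the transactivator tTA and carry a pTRE2hyg construct, so tTA and selection with Geneticin and hygromycin were common to all. Doxycycline is given as 2 ug per mL in that selection. The treatment lasted 10 days, and a label on the RNA gives a week without the drug. The cells were harvested at 50% confluency. Whether the 2 arrays of a construct came from separate cultures is not stated, so the SDs below measure the spread between hybridizations, which may be technical. Doxycycline and the protein changed together, and within 1 construct their effects cannot be told apart.

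Each array compared both states of 1 construct in 2 dyes. Array 1 of either construct had Cy5 for the expressing cells, and array 2 had Cy3. A positive value is read here as higher in expressing cells, the order in which each title names the pair. No source used here states that direction for the ratios, and if it ran the other way these probes would all have fallen. The files give probe IDs without gene names, and 0 of the 38948 IDs matched the gene table used here. The thyroid identity of the cells could therefore not be checked on marker genes, and each probe is called by its ID. IDs starting with ENSRNOG are Ensembl rat gene IDs, and those starting with Rn3 or R0 are numbers of the Operon oligonucleotide set.

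On Engr-HD array 1 the 158 raised probes had log2 ratios from 1.8 to 5.20, with a median of 2.42. Array 2 gave 1.81 to 4.87, with a median of 2.35. On Engr-HDm array 1 the same probes ranged from -0.51 to 0.47, with a median of -0.04, and on array 2 from -0.61 to 0.55, with a median of 0.01. The groups of arrays did not overlap at any of these probes, an order that the rule largely fixes. The share of all probes on the array without such overlap was not counted, so this is a description only. The RNA came from whole cultures, so more transcript per cell and more cells with the transcript cannot be told apart. The narrowest gap between the lower Engr-HD value and the higher Engr-HDm value of a probe was 1.52.

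**Figure D1:**
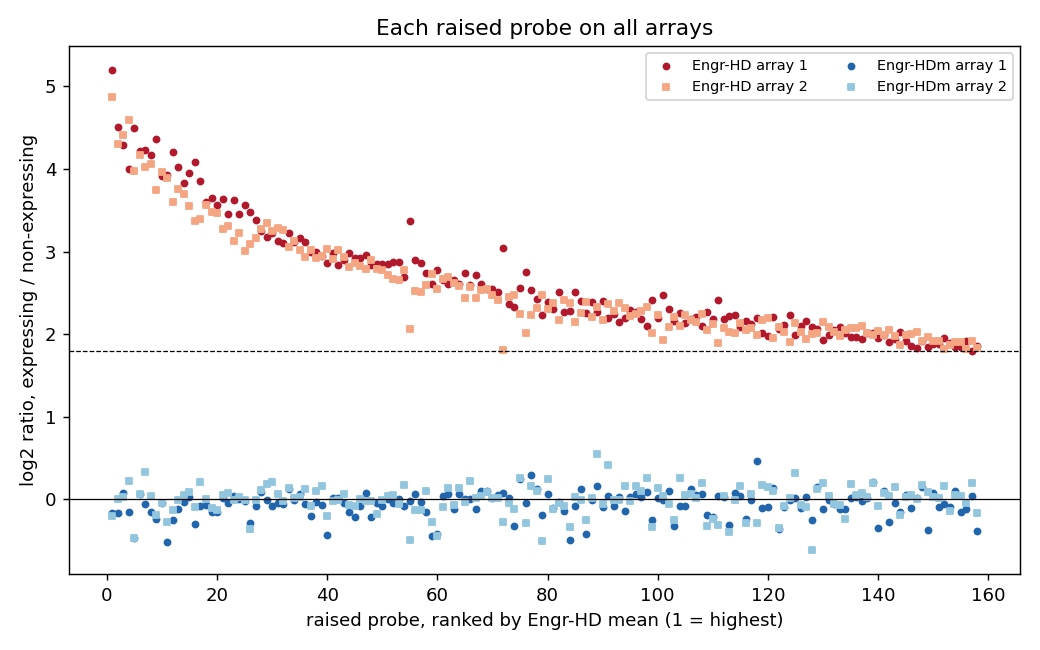
Log2 ratio, with the expressing cells on top (vertical axis), for each of the 158 raised probes, ranked by the Engr-HD mean (horizontal axis), with 1 point per array and the Engr-HD threshold of 1.8 as a dashed line. The Engr-HD values decline with rank, as the order by mean sets, with single arrays scattered around the mean. ENSRNOG00000018566, at rank 72, has 3.05 and 1.81. The Engr-HDm values stay between -0.61 and 0.55 at every rank.

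The size of the rise was graded, with no separate group at the top. A mean of 4 or more, 16-fold, was reached by 9 probes. Means from 3 to 4 were found at 28 probes, from 2 to 3 at 101 and below 2 at 20. So 138 of the 158 stood at 4-fold or higher on average and 37 at 8-fold or higher. Of the 25 highest Engr-HD means on the whole array, 24 belonged to the set, which the rule largely fixes.

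Probe ENSRNOG00000010233 read highest, at 5.20 and 4.87 on the Engr-HD arrays, against -0.16 and -0.20 on the Engr-HDm arrays. Its mean of 5.03 ± 0.23 (SD, n = 2 arrays) is 32.8-fold. Next came Rn30009383, with 4.51 and 4.30 with Engr-HD, against -0.17 and 0.01 with Engr-HDm. These top probes were thus high on both Engr-HD arrays and near 0 or slightly below it with the control protein.

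ENSRNOG00000007159 had 4.29 and 4.41 with Engr-HD, against 0.08 and 0.03 with Engr-HDm, a mean of 20.4-fold. Rn30009384 had 3.996 and 4.60 with Engr-HD, against -0.15 and 0.23 with Engr-HDm. Unlike most probes near the top, it read higher on array 2 than on array 1 in both constructs. ENSRNOG00000010666 had 4.50 and 3.98 with Engr-HD, against -0.47 and -0.46 with Engr-HDm. It was the only one of the 10 highest whose Engr-HDm mean lay beyond 0.25 in size, at -0.47 ± 0.001 (SD, n = 2 arrays), opposite in sign to its Engr-HD mean of 4.24 ± 0.37.

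ENSRNOG00000007078 differed little between arrays, with 4.22 and 4.17 with Engr-HD, against 0.07 and 0.07 with Engr-HDm. ENSRNOG00000015036 had 4.23 and 4.03 with Engr-HD, against -0.06 and 0.34 with Engr-HDm. Its Engr-HDm arrays disagreed in sign, so its Engr-HDm mean of 0.14 ± 0.28 is smaller than its own spread. Rn30017105 had 4.17 and 4.06 with Engr-HD, against -0.15 and 0.04 with Engr-HDm. R000556_01 had 4.37 and 3.74 with Engr-HD, against -0.24 and -0.19 with Engr-HDm. The tenth in order, ENSRNOG00000017628, had 3.92 and 3.96 with Engr-HD, against -0.05 and -0.04 with Engr-HDm. Of these 10 probes, 6 carry an Ensembl gene ID, and 7 probes were among the 10 highest on each Engr-HD array taken alone.

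The threshold cut through a continuous range. Among the rows within the Engr-HDm limit, 15 had their lower Engr-HD value between 1.8 and 1.9, and 21 had it between 1.7 and 1.8. Just inside stood Rn30009125, at 1.8 and 1.92 with Engr-HD against 0.04 and 0.20 with Engr-HDm, and ENSRNOG00000018262, at 1.92 and 1.82 against -0.12 and -0.04. Rn30009125 met the threshold exactly and dropped out when the columns were not centred. ENSRNOG00000018566 also lay just inside, through its array 2 value of 1.81. Just outside stood ENSRNOG00000006305, at 1.81 and 1.79 with Engr-HD, Rn30001872, at 1.79 and 1.95, and Rn30017075, at 2.37 and 1.79. Array 1 alone put 28 further rows at 1.8 or more, and array 2 alone put 19.

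The Engr-HDm limit removed 2 of the 160 rows that passed the Engr-HD threshold, and both lay on the low side of it. ENSRNOG00000015904 read 3.52 and 3.42 with Engr-HD, against -0.70 and -0.72 with Engr-HDm. R000447_01 read 2.76 and 2.65 with Engr-HD, against -0.61 and -0.59 with Engr-HDm. Both probes thus read high with the antagonist and below 0 with the control protein on every array. The same rule turned downwards, a fall of at least 1.8 on both Engr-HD arrays, was met by 55 rows.

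**Figure D2:**
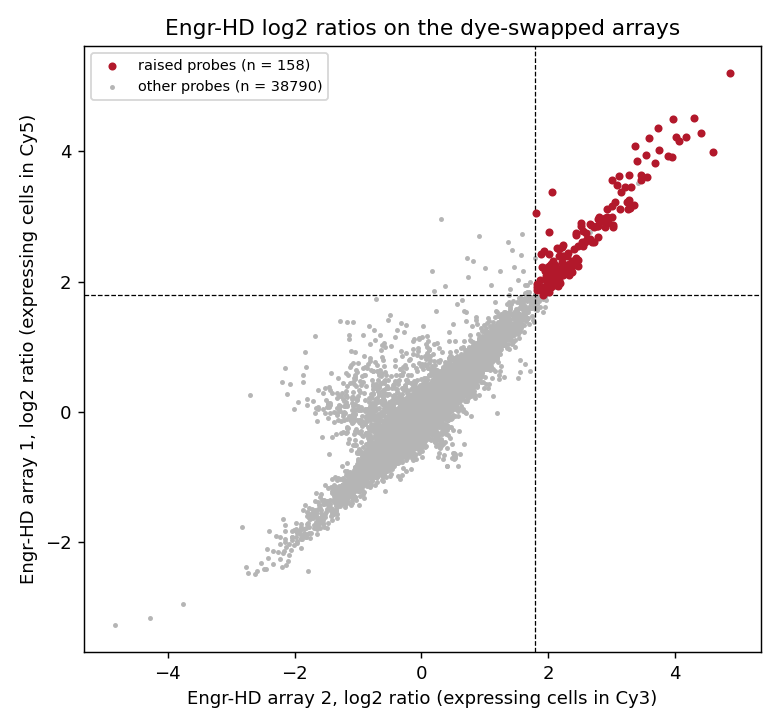
Log2 ratios on Engr-HD array 1 (vertical axis) against Engr-HD array 2 (horizontal axis), with the 158 raised probes in red, the other probes in grey and the threshold of 1.8 as dashed lines. The raised probes lie along the diagonal, and the points farthest from it have a higher value on array 1.

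The 2 Engr-HD arrays gave similar sizes for most of these probes. Their values correlated at r = 0.94 (Spearman's rho = 0.88) over the 158 probes, against 0.89 (rho = 0.74) over all 38948. This is a description, since the threshold bounds both axes and the probes share the arrays. The SD between the 2 arrays had a median of 0.087 over the raised probes and 0.043 over all 38948. Array 1 read higher than array 2 at 96 of the 158 (60.8%), against 42.9% of all probes. With Engr-HDm, array 2 was the higher one at 103 (65.2%), against 52.7% of all probes. An Engr-HD gap above 0.5 occurred at 11 of the 158 (6.96%), against 692 of all probes (1.78%). Array 1, with the expressing cells in Cy5, was the higher one at 10 of the 11 and at 531 of the 692.

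The widest gap was at ENSRNOG00000010524, with 3.37 and 2.07 on the Engr-HD arrays, against -0.02 and -0.49 on the Engr-HDm arrays. ENSRNOG00000018566 followed with 3.05 and 1.81 with Engr-HD, against 0.08 and -0.27 with Engr-HDm, and R004620_01 with 2.76 and 2.02, against -0.05 and -0.29. At each of these 3 probes array 1 was also the higher one with Engr-HDm. Their mean log2 ratios of 2.72 ± 0.92, 2.43 ± 0.88 and 2.39 ± 0.52 (SD, n = 2 arrays) had the largest SDs between the Engr-HD arrays in the set. Over the 10 probes with array 1 higher by more than 0.5, the Engr-HDm arrays differed the same way at 4.

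**Figure D3:**
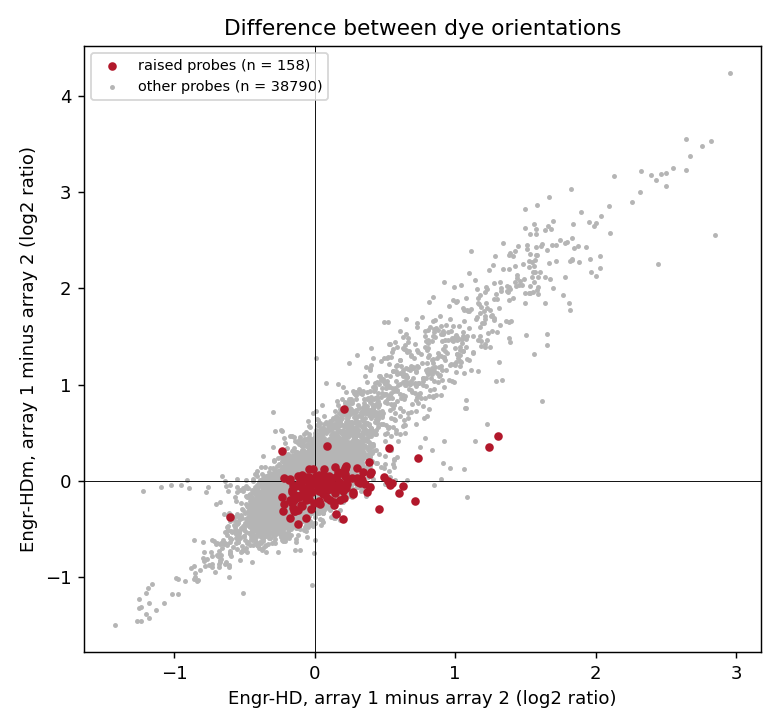
Array 1 minus array 2 in log2 ratio, with Engr-HD on the horizontal axis and Engr-HDm on the vertical axis, the 158 raised probes in red and the others in grey. The raised probes cluster near the origin, with ENSRNOG00000010524 and ENSRNOG00000018566 farthest to the right, away from the long diagonal band of other probes.

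The same quantity, array 1 minus array 2, follows the dye orientation. Over the raised probes its Engr-HD and Engr-HDm values correlated at r = 0.44 (Spearman's rho = 0.39, n = 158 probes), and over all probes at 0.85 (rho = 0.60, n = 38948). In both cases the probes share the arrays and dyes. The Engr-HDm arrays differed by more than 1 at 0 of the 158 and at 456 of all 38948 probes (1.17%). At more than 0.3 the counts were 16 of 158 (10.1%) and 2476 of 38948 (6.36%). The largest Engr-HDm gap in the set was at Rn30000187, with 2.20 and 1.99 with Engr-HD, against 0.47 and -0.28 with Engr-HDm. The gap at ENSRNOG00000010524 came next, and after it that at ENSRNOG00000010224, with 1.85 and 1.97 with Engr-HD, against -0.37 and 0.08 with Engr-HDm. At Rn30000187 and ENSRNOG00000010224 the Engr-HDm arrays disagreed in sign, and the Engr-HD arrays differed by only 0.21 and 0.12 in size. What part of the array differences comes from the dyes was not tested.

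Under the control protein the raised probes centred on 0. Their Engr-HDm means had a median of 0.005, against -0.001 over all probes, and 94 of the 158 (59.5%) lay within 0.1 of 0, against 76.9% of all probes. The Engr-HDm mean divided by the Engr-HD mean had a median of 0.002 over the raised probes and ran from -0.21 to 0.15. Both Engr-HDm arrays were above 0 at 45 probes (28.5%, against 26.5% of all probes) and below 0 at 54 (34.2%, against 26.7%). At the other 59 they disagreed in sign or 1 of them was 0. The size of the rise with Engr-HD and the Engr-HDm mean were hardly related over the 158 probes (r = -0.11, Spearman's rho = -0.10). Over all probes these correlated at 0.19.

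**Figure D4:**
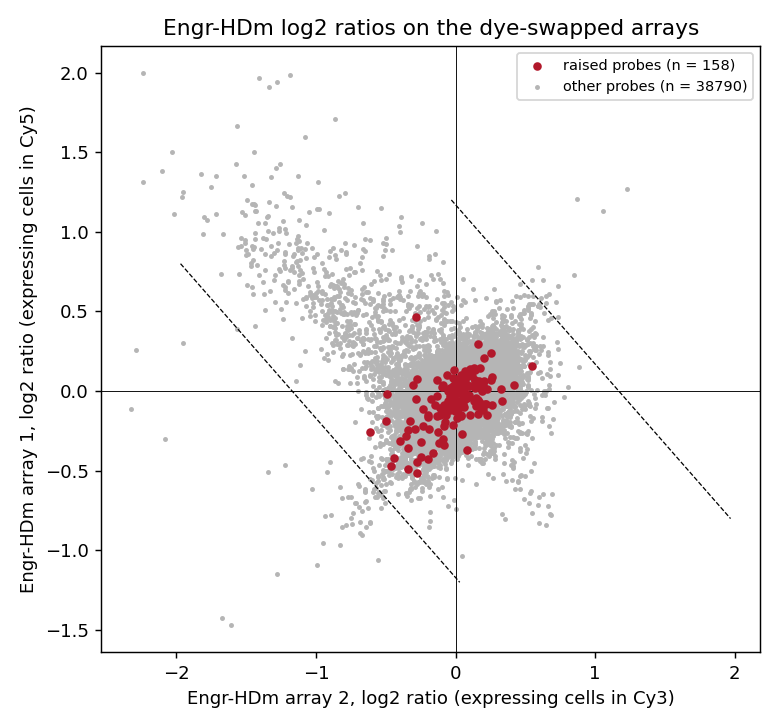
Log2 ratios on Engr-HDm array 1 (vertical axis) against Engr-HDm array 2 (horizontal axis), with the 158 raised probes in red, the other probes in grey and the 1.5-fold limit on the mean as dashed diagonals. The raised probes form a tail towards the lower left, and only Rn30000187 stands at the start of the band of other probes that runs to the upper left.

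The Engr-HDm means of the raised probes leaned towards low values at the edge. They lay below -0.25 at 18 probes (11.4%, against 2.26% of all probes) and above 0.25 at 1 (0.633%, against 1.78%). At 13 of the 18, both arrays were below -0.2. The 18 held 8 probes with Ensembl IDs, 7 with Rn3 and 3 with R0 numbers, and their Engr-HD means ran from 1.85 to 4.24, with a median of 2.33. They were therefore spread over most of the range of rises. The 2 Engr-HDm arrays correlated at r = 0.54 over the 158 probes (Spearman's rho = 0.51), against -0.11 (rho = 0.19) over all 38948, again with shared arrays.

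The lowest Engr-HDm mean was that of ENSRNOG00000010666, described above. Rn30026696 followed, with 2.09 and 2.00 with Engr-HD, against -0.26 and -0.61 with Engr-HDm. It was the only raised probe with a single Engr-HDm value beyond 1.5-fold. ENSRNOG00000019810 had 2.77 and 2.55 with Engr-HD, against -0.42 and -0.44 with Engr-HDm, so its Engr-HDm arrays agreed closely. At the other end, ENSRNOG00000004621 had 2.27 and 2.33 with Engr-HD, against 0.16 and 0.55 with Engr-HDm. ENSRNOG00000013391 had 2.55 and 2.24 with Engr-HD, against 0.24 and 0.26 with Engr-HDm. Rn30004139 had 2.19 and 2.37 with Engr-HD, against 0.04 and 0.42 with Engr-HDm. Of these last 3, ENSRNOG00000013391 alone had similar Engr-HDm values on both arrays.

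A limma fit of all 38948 probes gives the frame for these values. All 158 raised probes were called higher with Engr-HD (limma, adjusted p below 0.05), as were 14.2% of all probes. All 158 were also called higher with Engr-HD than with Engr-HDm, as were 8.83% of all probes. The rule used both contrasts, so these counts follow from it. With Engr-HDm, limma called 0 of the 158, and 0% of all probes. An unadjusted p below 0.05 for Engr-HDm was found at 40 of the 158 (25.3%) and at 5440 of all probes (13.97%). When the fit took the array number, and with it the dye orientation, as a replicate block, 8 of the 158 were called higher with Engr-HDm, against 6.72% of all probes, and 21 were called lower, against 6.6%. Those 29 Engr-HDm means were 0.13 to 0.47 in size, and the rule bounds them too. With the Engr-HD and Engr-HDm arrays scaled to an equal spread the rule left 84 members, and under quantile normalization 46. Both scalings shrink the wider Engr-HD arrays.

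The 3 kinds of ID were unequally represented. Ensembl gene IDs made up 73 of the 158 raised probes (46.2%), against 30.8% of all probes. Operon numbers beginning Rn3 made up 59 (37.3%), against 63.0%, and those beginning R0 made up 26 (16.5%), against 6.20%. Per kind, 0.609% of the Ensembl probes, 0.240% of the Rn3 probes and 1.08% of the R0 probes belonged to the set. The rise had a median log2 ratio of 2.51 for Ensembl, 2.26 for Rn3 and 2.39 for R0 members. The highest means were 5.03, 4.40 and 4.05 in the same order, so each kind held large rises. A gene may have more than 1 probe, so the shares count probes, not genes.

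Consecutive numbers occurred among the raised probes. Among the 85 members with Operon numbers, 4 formed 2 pairs of consecutive numbers. Both pairs carry Rn3 numbers, and 0.240% of all Rn3 probes belonged to the set. How many such pairs a set of this size would hold anywhere on the array was not counted. The first pair was Rn30009383 and Rn30009384, whose values stand above, with Engr-HD means of 4.40 ± 0.15 and 4.30 ± 0.42. The second was Rn30013131, at 2.21 and 1.95 with Engr-HD against 0.14 and 0.11 with Engr-HDm, and Rn30013132, at 2.55 and 2.54 against 0.10 and 0.09. Both members of a pair were therefore high on both Engr-HD arrays, and the files do not say whether they detect 1 transcript.

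Beyond these pairs, 128 probes that were not members carried the number just before or after a member. Their Engr-HD means had a median of 0.01, and 88 lay within 0.25 of 0. Over all 38948 probes the median was 0, with quartiles of -0.068 and 0.063, and the share within 0.25 was not counted. A mean of 1 or more occurred at 5 of the 128 neighbours (3.91%), against 1.64% of all probes with Operon numbers. The second share includes the 85 members, which the neighbours leave out, so the 2 sets are not alike. Of the 128, 2 read -1 or lower. The 2 highest were R000080_01, beside R000081_01, and Rn30012211, beside Rn30012210, both singled out after their values were seen. R000080_01 had 2.49 and 1.43 with Engr-HD, against 0.14 and 0.01 with Engr-HDm. Rn30012211 had 1.99 and 1.71 with Engr-HD, against -0.24 and -0.36 with Engr-HDm. Both passed 1.8 on Engr-HD array 1 and missed it on array 2.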

How the data were processed

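The authors deposited 1 log ratio per probe for each of 4 arrays of a rat 70-mer set, read here as log2. The log base, direction, scanner, background correction and normalization are not given in the sources used here. A different log base would change every fold. The columns lay within 0.003 of a median of 0. The 12 control rows were left out, and each column was centred on its median over the other 38948. Brightness values were not used here, so dim probes were kept, and with only 4 arrays precision is low.

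The member rule was applied to the centred values. Log2 ratios were fitted with limma 3.58.1 in R 4.3.3 (lmFit, eBayes, two-sided, Benjamini-Hochberg over all probes, threshold 0.05), on all 4 arrays together, a coefficient for each construct leaving 2 residual degrees of freedom. The fit was also run on simulated arrays with independent noise. Those had no deviation shared by same-numbered arrays, so the simulation cannot show how the fit handles one. Same-numbered arrays share the dye orientation and deviated together (r = 0.849), so a fit with the number as a replicate block was run as well, with 1 residual degree of freedom. Other settings were no centring, robust empirical Bayes, quantile normalization, an equal median absolute deviation, other rule thresholds and each array left out.

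The members and lists were chosen with earlier results of these data known. Probes are named by a fixed rule: the 10 highest Engr-HD means, the 3 members or rows just inside and just outside the threshold, the 3 highest and lowest Engr-HDm means, the 3 largest array differences per construct, rows that miss only the Engr-HDm limit, and consecutive Operon numbers. R000080_01 and Rn30012211 fall outside this rule and were named after their values were seen. Lists of thyroid, fibroblast, lung, gastrointestinal, junction, mesenchymal, cell cycle and interferon genes were not applied, since 0 probe IDs could be matched to a gene. No probe sequence was used here.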

Additional observations from a re-analysis of the deposited data

Results flagged for a closer look

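The change with Engr-HD differed from that with Engr-HDm at 158 of the 158 raised probes, by limma's test of the difference itself, all upwards with Engr-HD. Of all 38948 probes, 8.83% were called upwards in the same contrast. The rule that chose the probes used both sides of this difference, so the count adds no support of its own. Groups of 2 arrays are too small for a check on stray arrays.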

How the results depend on the processing

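The set held 157 probes without centring, 123 at a threshold of 2, 145 at an Engr-HDm limit of 0.3 and 160 with no such limit. It held 84 with an equal median absolute deviation, 46 under quantile normalization and 242 at a threshold of 1.5. All 84 and 46 were among the 158. Leaving out 1 array gave 157 to 186. The median Engr-HD mean of the 158 was 1.91 with an equal median absolute deviation, 1.55 under quantile normalization and 2.35 to 2.425 with 1 Engr-HD array left out. Their median Engr-HDm mean was -0.0425 to 0.014 with 1 Engr-HDm array left out. The limma counts over all probes were 10981 for Engr-HD, 0 for Engr-HDm and 6656 for Engr-HD minus Engr-HDm. Quantile normalization lowered the first to 4453 and the last to 1829. With an equal median absolute deviation, 2 were called for Engr-HDm and 4328 for Engr-HD minus Engr-HDm. The replicate block raised the counts to 16314 for Engr-HD, 5190 for Engr-HDm and 12891 for their difference. Dropping each array in turn left 5048 to 9777 for Engr-HD and 2162 to 2773 for their difference, with a lone array assumed to vary like the others. The cause of these changes in the counts was not tested. Of the 158, 155 were still called higher with Engr-HD and 143 in the difference under quantile normalization. The rule chose the 158 from the same arrays, so these counts are a description. Of 406 values for the named probes under these alternatives, 383 kept their direction and side of the threshold, 23 kept their direction and missed the threshold, and 0 reversed. Without signal over background, how firmly dim probes can be read is unknown.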

Other observations

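Among the probes with R0 numbers, those numbered below 1000 held 13 of the 26 raised members. They were 3.02% of the 431 rows in that range, against 0.656% of the 1982 rows numbered 1000 or more, which held the other 13. The bound of 1000 was chosen after the values were seen, and what the order of these numbers reflects is not given in the sources used here.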
